A study of Mus musculus with 36 samples.

Results

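The synaptic effector genes Arc, Homer1, Plk2 and Nptx2, which neurons switch on with activity, were examined together with their relatives Homer2, Homer3, Nptx1 and Nptxr. The members were chosen by name, by matching gene identifiers to mouse symbols, and made up 8 of the 55470 gene rows of each library. Each member had 1 row, and all 8 were among the 11341 genes that passed the low-count filter.

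The libraries came from mouse cortex and held ribosome-bound RNA, pulled down with an anti-HA antibody from RiboTag mice in which Cre driven by Camk2a, a gene of excitatory forebrain neurons, tags the ribosomal protein Rpl22. In cohort 1 there were 5 libraries of Shank3(ΔC/+) mice taken 1 h after a forced swim, 3 of naive Shank3(ΔC/+) mice, 6 of WT mice at 1 h and 3 of naive WT mice. In cohort 2 there were 6 libraries of Shank3(ΔC/+) mice taken 4 h after the swim, 4 of naive Shank3(ΔC/+) mice, 5 of WT mice at 4 h and 4 of naive WT mice. Shank3(ΔC/+) mice, called Shank3 mice from here on, carry 1 mutated allele of the postsynaptic scaffold gene Shank3, and WT mice are Shank3(+/+) littermates. All groups also carry HA-Rpl22(f/+), written f/f in one label, and Camk2a-Cre(+/-) on a C57BL6JL background. The swim was in water at 25 °C and lasted 5 min in one label and 6 min in another, and naive mice stayed in their home cages. Every 1 h library is in cohort 1 and every 4 h library in cohort 2, so each swim group was set against naive mice of its own cohort. The labels do not tie libraries to named animals, so the p-values below speak only of how libraries vary.

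Arc, a cytoskeleton-associated protein that promotes removal of AMPA receptors from synapses, is transcribed within minutes of strong synaptic input. Homer proteins link group 1 metabotropic glutamate receptors to Shank scaffolds in the postsynaptic density, and activity induces a short Homer1 form that breaks these links. Plk2 is a kinase that marks the spine protein SPAR for degradation when activity stays high, and Nptx2 is a secreted pentraxin that gathers AMPA receptors at synapses together with Nptx1 and the membrane-bound Nptxr.

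Arc lies at chr15:74669083-74672570 on the minus strand of mm10, Homer1 at chr13:93299635-93405129 and Plk2 at chr13:110395046-110400844, both on the plus strand, and Nptx2 at chr5:144545902-144557478 on the plus strand. Homer2 lies at chr7:81600481-81707527 on the minus strand and Homer3 at chr8:70282827-70294361 on the plus strand. Nptx1 lies at chr11:119538719-119547753 and Nptxr at chr15:79786351-79804766, both on the minus strand. These positions come from GENCODE vM21. The rows of the files are ENSMUSG00000022602 (Arc), ENSMUSG00000007617 (Homer1), ENSMUSG00000021701 (Plk2), ENSMUSG00000059991 (Nptx2), ENSMUSG00000025813 (Homer2), ENSMUSG00000003573 (Homer3), ENSMUSG00000025582 (Nptx1) and ENSMUSG00000022421 (Nptxr). A RefSeq promoter entry of build GRCm38.p6 was found for 4 of the 8 members, namely Homer1, Plk2, Homer2 and Homer3. The 250 bases before the start site are shown for Homer1 and Plk2, the induced genes for which an entry was found. Capitals mark TGACG on either strand, the core of the cyclic AMP response element (CRE) that CREB binds. The Homer1 window is chr13:93303507-93303756 and the Plk2 window chr13:110394794-110395043, both on the plus strand, and the Homer1 window lies within the annotated span of the gene.
Homer1: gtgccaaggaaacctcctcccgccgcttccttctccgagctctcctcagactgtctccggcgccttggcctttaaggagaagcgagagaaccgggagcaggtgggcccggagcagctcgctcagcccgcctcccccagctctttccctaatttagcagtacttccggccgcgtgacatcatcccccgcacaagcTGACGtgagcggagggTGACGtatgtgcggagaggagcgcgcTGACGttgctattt
Plk2: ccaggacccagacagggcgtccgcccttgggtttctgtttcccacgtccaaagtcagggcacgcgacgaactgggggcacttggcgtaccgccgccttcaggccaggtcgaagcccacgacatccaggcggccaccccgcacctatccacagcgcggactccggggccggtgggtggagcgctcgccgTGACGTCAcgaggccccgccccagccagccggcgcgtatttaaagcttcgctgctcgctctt
The Homer1 window held TGACG 3 times, starting 56, 40 and 14 bases before the start site. The Plk2 window held the full palindrome TGACGTCA, in which TGACG overlaps its own reverse complement, from 62 bases before the start, and the TATA-like TATTTAAA from 26 bases before it. Of 32851 RefSeq windows of the same length, searched on both strands, 17.8% held TGACG at least once, 0.688% at least 3 times, 1.55% held TGACGTCA and 1.71% held TATTTAAA. The AP-1 site TGANTCA (in 6.75% of all windows), the EGR site GCGTGGGCG (in 0.536%) and the SRF CArG box (in 1.47%) had no match in either window. The second Homer1 entry, both Homer2 entries and the Homer3 entry held no TGACG.

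The libraries held between 0.884 and 3.52 M counts. Most counts, 75.7%, lay on rows with an exon of another gene on the opposite strand, and the strand setting of the counting is not given in the sources used here. The Shank3 row, which also has an exon facing another gene, covers the whole gene and so gives no check of the mutated allele. The pair share, the percent of counts on coding rows within pairs of a coding row and an antisense row with overlapping exons, was 17.5% to 33.1% in Shank3 4 h libraries against 11.9% to 15.0% in their naive libraries, and 17.0% to 31.7% in WT 4 h libraries against 11.8% to 14.9%. At 1 h it was 12.6% to 16.8% in Shank3 swim libraries against 10.8% to 11.9%, and 11.5% to 17.0% in WT swim libraries against 10.65% to 11.02%. The pair share moved with the swim groups, and values from fits with it as a covariate stand beside the results below. Among the 4821 genes lacking an opposite-strand neighbour, the median log2 fold change was 0.30 in Shank3 mice and 0.57 in WT mice at 1 h, and 0.62 and 0.58 at 4 h, and some changes are also given relative to these medians. Of the 7 pyramidal markers 7 passed the filter, while 0 of 5 endothelial markers did and Cldn5 had 0 counts in all libraries. The summed level of the 4 measured oligodendrocyte markers was 120 to 323 CPM in Shank3 4 h libraries against 67.3 to 117 CPM in naive ones, and 112 to 264 CPM in WT 4 h libraries against 76.3 to 87.8 CPM. The sum of the 3 measured astrocyte markers was 74.6 to 90.4 CPM against 34.4 to 53.4 CPM in Shank3 mice and 74.8 to 98.3 CPM against 30.0 to 75.7 CPM in WT mice at 4 h. At 1 h it was 41.1 to 68.9 CPM against 34.2 to 43.5 CPM in Shank3 mice and 31.5 to 80.0 CPM against 23.5 to 26.5 CPM in WT mice, while the oligodendrocyte sums overlapped in both genotypes. Csf1r, the 1 microglia marker of 6 that passed the filter, faces another gene's exon and measured 162 to 357 CPM in Shank3 4 h libraries against 555 to 797 CPM in naive ones, with a log2 change of -1.48 at 4 h in Shank3 mice and -1.43 in WT mice, and of -0.78 and -0.90 at 1 h (adjusted p = 5.34e-06, 2.61e-05, 0.0517 and 0.00865, edgeR). The sum of the 3 measured interneuron markers overlapped between swim and naive libraries in each genotype at each time. In WT mice at 1 h 1 of the 3 rose, where 16.9% of all genes were higher, and 0 passed in the other swim responses. It was Gad1, which lies opposite another gene, with 3.4 ± 1.31 (SE, adjusted p = 0.0424, edgeR). Of the 7 pyramidal markers 4 rose and 2 fell at 4 h in each genotype, and at 1 h 0 rose and 1 fell in Shank3 mice and 2 rose and 2 fell in WT mice. At 4 h 32.7% of all genes in Shank3 mice and 29.0% in WT mice were higher, and 29.4% and 26.9% lower. Among genes with no opposite gene 44.8% and 38.4% were higher at 4 h. At 1 h 4.99% and 16.9% of all genes were higher, and 7.25% and 17.3% lower. The sum of the pyramidal markers, most of it Camk2a and Nrgn, was 2203 to 3712 CPM in Shank3 4 h libraries against 1568 to 1948 CPM, and 2267 to 3874 CPM in WT 4 h libraries against 1423 to 2062 CPM. The part of these markers in the members' values was not tested. In bulk RNA of this kind, a change in the number of tagged cells and a change in RNA per cell cannot be told apart.

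Arc, Homer1, Plk2, Nptx2, Nptx1 and Nptxr faced no gene on the other strand. Nptxr shares 890 exon bases with Npcd on its own strand, whose row held 0 counts. Homer2 shares 525 exon bases with the antisense gene Gm44570 and Homer3 shares 874 with Ddx49, which runs the other way, so the values of Homer2 and Homer3 are uncertain. Over all libraries Homer3 held 27663 counts, Nptxr 9446, Plk2 7150, Nptx1 5747, Homer1 4501, Arc 2225, Homer2 945 and Nptx2 473. Nptx2 had at most 77 counts in a library and Homer2 at most 97, so small changes in these genes were not detectable at this depth.

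At 1 h after the swim, Arc and Plk2 rose in both genotypes and Homer3 fell in both, while Homer1, Nptx2 and Nptx1 did not pass the test in either. In Shank3 mice 2 members rose and 1 fell of 8, where 12.2% of all genes tested passed an adjusted p of 0.05 (edgeR), 4.99% of them higher and 7.25% lower. In WT mice 4 rose and 1 fell, where 34.2% of all genes passed, 16.9% higher and 17.3% lower. The median log2 fold change of the 8 members was 0.47 in Shank3 mice and 0.69 in WT mice, beside 0.09 and 0.24 over all genes tested.

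Arc had the highest log2 fold change of the 8 genes at 1 h in each genotype, with no test against the other members. It measured 46.7, 47.0, 42.7, 46.2 and 41.7 CPM in the 5 Shank3 1 h libraries, against 8.09, 12.8 and 6.32 CPM in the 3 naive Shank3 libraries of cohort 1. In WT 1 h libraries Arc ran from 34.7 to 88.1 CPM with a median of 46.9 CPM, against 3.46, 10.4 and 0 CPM in naive WT libraries. Every swim library lay above every naive library in each genotype. The log2 fold change was 2.29 ± 0.67 (SE, adjusted p = 0.0277, edgeR) in Shank3 mice and 3.39 ± 0.77 (adjusted p = 0.00219) in WT mice, which is 1.99 and 2.82 above the median of genes with no opposite gene. Naive Arc counts were few, 24 in all over the 3 Shank3 libraries and 11 over the 3 WT libraries, so the size of the fold rests on low counts. Without WT naive replicate 2 the WT change was 5.00, and without WT naive replicate 3 it was 2.87. In Shank3 mice the call was lost without Shank3 1 h replicate 3 (adjusted p = 0.057, edgeR) and without naive Shank3 replicate 1, 2 or 3 (adjusted p = 0.0701, 0.122 and 0.0932), with changes of 2.12 to 2.62 over all libraries left out. With the pair share as covariate the changes were 2.03 (adjusted p = 0.106) in Shank3 mice and 3.00 (adjusted p = 0.0338) in WT mice (edgeR). With TMM scaling over rows with no opposite gene, the Shank3 change was 2.08 (adjusted p = 0.0507, edgeR). In 1 library of the 1 h groups, WT 1 h replicate 1, the pair share of 11.45% lay within the naive range of cohort 1 over both genotypes, and Arc was at 36.5 CPM there; every other 1 h library had a pair share above the naive maximum of 11.9%, and the part of the pair share in the Arc values was not tested beyond the fit with the covariate.

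Plk2, the kinase of homeostatic spine loss, also rose by 1 h. Its levels were 76.0, 69.8, 96.5, 79.3 and 83.95 CPM in Shank3 1 h libraries, against 40.4, 36.0 and 43.0 CPM in naive Shank3 libraries. In WT 1 h libraries they ran from 56.6 to 119 CPM with a median of 83.5 CPM, against 32.8, 27.6 and 17.3 CPM in naive WT libraries. The swim and naive libraries of Plk2 did not overlap in either genotype. The log2 fold change was 1.03 ± 0.25 (SE, adjusted p = 0.0133, edgeR) in Shank3 mice and 1.79 ± 0.27 (adjusted p = 0.000109) in WT mice. It passed the threshold in both genotypes with the pair share as covariate, at 0.79 (adjusted p = 0.00221) and 1.46 (adjusted p = 4.01e-06, edgeR). Without Shank3 naive replicate 2 the Shank3 value was 0.97 (adjusted p = 0.113, edgeR). Arc and Plk2 were the 2 members of 8 with every Shank3 swim library above every naive one, as in 12.4% of all genes, and in WT mice Homer1 joined them, as in 10.6%.

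Homer1, the scaffold gene with an activity-induced short form, measured 43.0, 52.2, 40.9, 35.7 and 26.5 CPM in Shank3 1 h libraries, against 29.3, 26.7 and 25.3 CPM in naive ones, and 1 swim library overlapped the naive range. In WT mice it ran from 29.2 to 52.0 CPM at 1 h with a median of 34.4 CPM, against 24.2, 28.8 and 20.4 CPM in naive libraries, without overlap. The log2 fold changes of 0.54 ± 0.27 (SE, adjusted p = 0.167, edgeR) in Shank3 mice and 0.63 ± 0.29 (adjusted p = 0.0791) in WT mice did not pass the test. The WT value passed with cohort 1 fitted alone (0.71, adjusted p = 0.0336, edgeR). The row of Homer1 sums 11 annotated coding forms whose proteins range from 180 to 370 residues, so the short activity-induced form and the long forms could not be separated.

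Nptx2 stayed at a few CPM at 1 h. It had 5.61, 0.652, 2.76, 6.10 and 2.71 CPM in Shank3 1 h libraries, against 1.01, 4.65 and 6.32 CPM in naive ones, and 0 to 5.18 CPM in WT 1 h libraries, against 8.64, 4.602 and 3.14 CPM in naive ones. The ranges overlapped in both genotypes, with log2 changes of -0.16 ± 0.70 (SE) and -0.62 ± 0.68 (adjusted p = 0.898 and 0.492, edgeR).

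**Figure D1:**
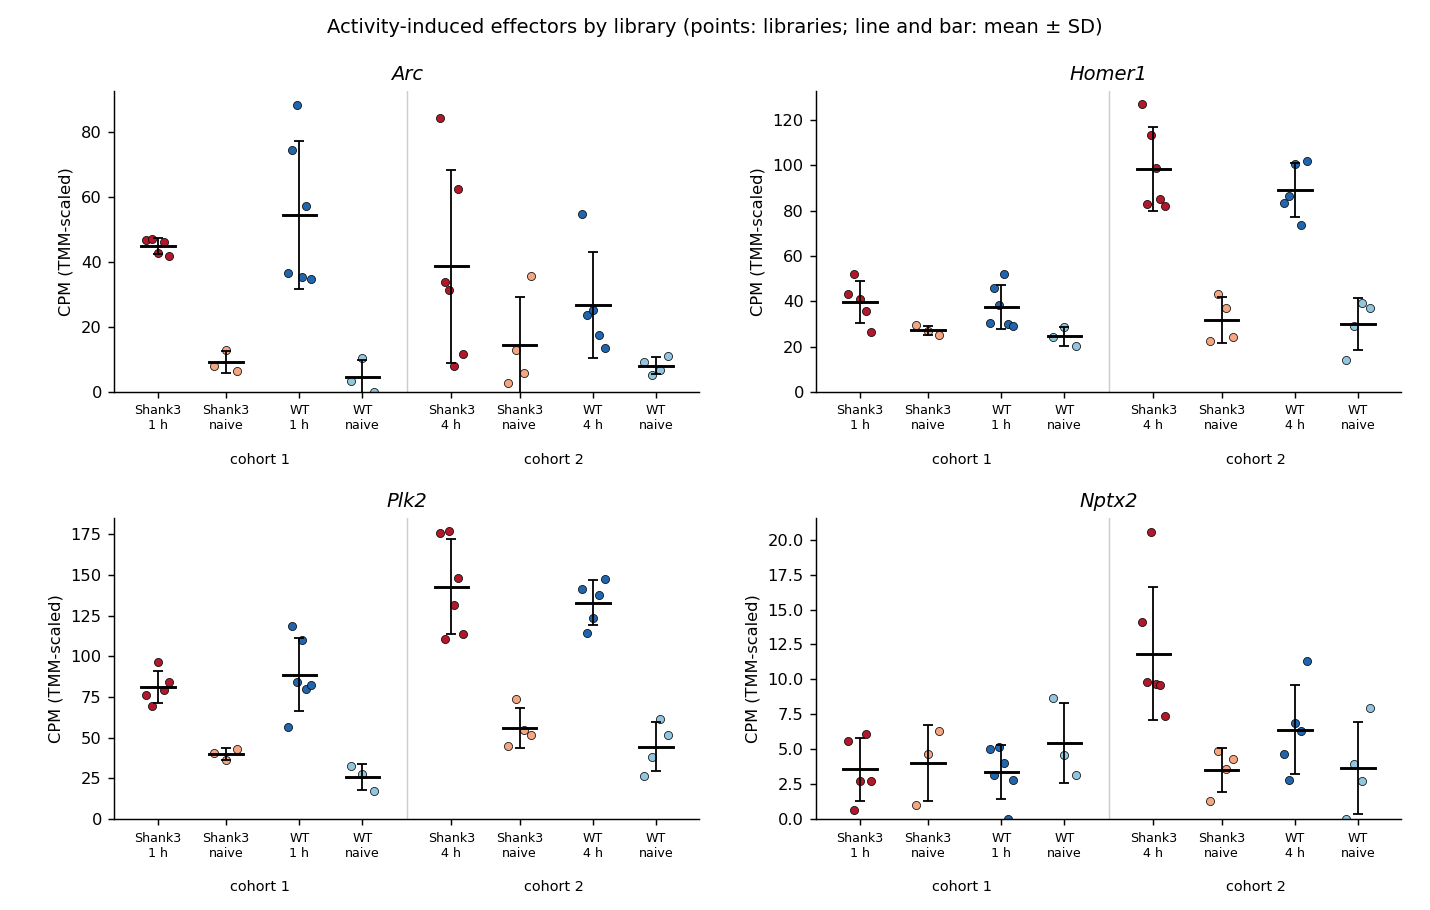
TMM-scaled CPM of Arc, Homer1, Plk2 and Nptx2 (vertical axes) in each of the 36 libraries, grouped by genotype, swim time and cohort (horizontal axes); lines and bars give the mean and SD, drawn down to 0 at most. Arc stood at 41.7 to 47.0 CPM in all Shank3 1 h libraries, while Homer1 at 4 h, 73.8 to 127 CPM over both genotypes, lay above every 1 h and naive library.

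At 4 h Homer1, Plk2, Arc and Nptxr rose in both genotypes, Nptx2 rose in Shank3 mice, and Homer3 fell in both. In Shank3 mice 5 members rose and 1 fell of 8, where 62.1% of all genes tested passed, 32.7% higher and 29.4% lower. In WT mice 4 rose and 1 fell, where 56.0% passed, 29.0% higher and 26.9% lower. Among genes with no opposite gene, 44.8% were called higher in Shank3 mice and 38.4% in WT mice. The median of the 8 members was 1.12 in Shank3 mice and 0.87 in WT mice, beside 0.22 and 0.23 over all genes. Every swim library lay above every naive library for Homer1, Plk2, Nptx2 and Nptxr in Shank3 mice, as for 20.5% of all genes, and for Arc, Homer1 and Plk2 in WT mice, as for 21.3%. Most genes passed at 4 h, so the count of members called is read here through the size of each change.

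Homer1 rose at 4 h in both genotypes. It ran from 82.1 to 127 CPM in Shank3 4 h libraries with a median of 92.04 CPM, against 22.5, 43.3, 36.8 and 24.3 CPM in naive Shank3 libraries of cohort 2. In WT mice it measured 83.2, 86.5, 101, 73.8 and 102 CPM at 4 h, against 13.8, 29.0, 39.5 and 36.9 CPM in naive libraries. The lowest 4 h library was above the highest naive library in both genotypes. The log2 fold change was 1.59 ± 0.23 (SE, adjusted p = 1.87e-06, edgeR) in Shank3 mice and 1.55 ± 0.24 (adjusted p = 5.26e-06) in WT mice. These values are 0.97 and 0.98 above the median of genes with no opposite gene. Homer1 passed the test in both genotypes with TMM over rows with no opposite gene (1.10 and 1.12) and with the pair share as covariate (1.01, adjusted p = 0.0228, and 1.07, adjusted p = 0.00181, edgeR), and without any single library (1.33 to 1.81).

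Plk2 ran from 111 to 177 CPM in Shank3 4 h libraries with a median of 140 CPM (139.9 before rounding), against 45.0, 73.5, 54.6 and 51.5 CPM in naive ones. In WT mice it measured 142, 114, 124, 138 and 148 CPM at 4 h, against 26.5, 38.2, 61.2 and 51.8 CPM. No swim library overlapped a naive library. The log2 fold change was 1.33 ± 0.21 (SE, adjusted p = 4.37e-06, edgeR) in Shank3 mice and 1.56 ± 0.22 (adjusted p = 2.82e-06) in WT mice. The WT change still passed with the pair share as covariate at 0.92 (adjusted p = 0.00112) while the Shank3 change was 0.57 (adjusted p = 0.133, edgeR). With TMM over rows with no opposite gene both passed, at 0.81 and 1.12.

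Arc at 4 h varied widely between libraries. In Shank3 mice it ran from 8.04 to 84.1 CPM with a median of 32.6 CPM, against 2.65, 13.0, 5.94 and 35.8 CPM in naive libraries. The WT 4 h libraries had 54.7, 23.5, 25.1, 17.4 and 13.4 CPM of Arc, against 9.23, 5.27, 6.80 and 10.96 CPM. The groups overlapped in Shank3 mice and did not in WT mice. The naive Shank3 library at 35.8 CPM is replicate 7, in which 1 ribosomal RNA row held 38.6% of all counts. The log2 fold change was 1.52 ± 0.53 (SE, adjusted p = 0.0132, edgeR) in Shank3 mice and 1.69 ± 0.60 (adjusted p = 0.0169) in WT mice. Without Shank3 naive replicate 7 the Shank3 change was 2.24, and the call was lost on leaving out the fourth or sixth naive Shank3 replicate (1.22, adjusted p = 0.0599, and 1.29, adjusted p = 0.0512) or the first Shank3 4 h replicate (1.11, adjusted p = 0.0588, edgeR). The WT call was lost without WT 4 h replicate 1 (1.25, adjusted p = 0.0677, edgeR). Neither call held with the pair share as covariate (0.68, adjusted p = 0.78, and 0.99, adjusted p = 0.54) or with TMM over rows with no opposite gene (0.96, adjusted p = 0.124, and 1.27, adjusted p = 0.0771, edgeR).

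Nptx2, the induced pentraxin, rose in Shank3 mice at 4 h and did not pass the test in WT mice. It ran from 7.41 to 20.5 CPM in the 6 Shank3 4 h libraries with a median of 9.73 CPM, against 1.32, 4.87, 3.56 and 4.29 CPM in naive ones, without overlap. The WT 4 h libraries had 4.68, 2.82, 6.84, 6.27 and 11.3 CPM, against 0, 3.95, 2.72 and 7.97 CPM, with overlap. The log2 fold change was 1.67 ± 0.49 (SE, adjusted p = 0.00386, edgeR) in Shank3 mice and 0.88 ± 0.53 (adjusted p = 0.149) in WT mice. The difference between these responses was 0.79 ± 0.77 (adjusted p = 1, edgeR) and did not pass its own test. Without WT naive replicate 7 the WT change was 1.57 (adjusted p = 0.0374). With the pair share as covariate the changes were 0.44 (adjusted p = 0.776) in Shank3 mice and -0.18 (adjusted p = 0.896, edgeR) in WT mice.

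Among the relatives, Nptxr, the membrane-bound pentraxin receptor, rose at 4 h. It ran from 154 to 248 CPM in Shank3 4 h libraries with a median of 190 CPM (190.1 before rounding), against 72.8, 141, 106 and 87.3 CPM in naive ones, without overlap. The WT 4 h libraries measured 183, 118, 148, 139 and 217 CPM, against 48.5, 73.7, 96.6 and 134 CPM, with overlap. Its log2 fold change was 0.91 ± 0.23 (SE, adjusted p = 0.000841, edgeR) in Shank3 mice and 0.86 ± 0.24 (adjusted p = 0.00245) in WT mice. At 1 h it was 0.53 ± 0.27 (adjusted p = 0.163) in Shank3 mice and 0.74 ± 0.27 (adjusted p = 0.0308, edgeR) in WT mice. The WT call at 1 h was lost, at 0.62 to 0.73, without WT naive replicate 1 or 3 or WT 1 h replicate 2 or 3 (adjusted p from 0.0529 to 0.147, edgeR), and with the pair share as covariate (0.38, adjusted p = 0.173). Relative to genes with no opposite gene the Nptxr changes at 4 h were 0.29 in both genotypes, and they did not pass with TMM over those rows (0.41 and 0.42) or with the pair share as covariate (0.10 and 0.17).

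Nptx1, the secreted neuronal pentraxin related to Nptx2, did not pass the test at either time under TMM over all genes. Its group means ran from 84.2 to 101 CPM, and swim and naive libraries overlapped in both genotypes at both times. The log2 changes were -0.22 ± 0.19 (SE) in Shank3 mice and -0.01 ± 0.19 in WT mice at 1 h, and 0.06 ± 0.17 and -0.23 ± 0.17 at 4 h, with adjusted p from 0.246 to 0.984 (edgeR). With TMM over rows with no opposite gene, Nptx1 fell at 4 h by 0.46 in Shank3 mice (adjusted p = 0.0319) and by 0.68 in WT mice (adjusted p = 0.0028, edgeR). Its call at 4 h thus depends on the scaling. So does its direction in Shank3 mice, while the WT change at 4 h was negative under both scalings.

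Homer3, a Homer protein best known in cerebellar neurons, was the member that fell. It measured 683, 567.5, 451, 554 and 659 CPM in Shank3 1 h libraries, against 929, 1144 and 946 CPM in naive ones, and 140 to 322 CPM in Shank3 4 h libraries, against 784, 502, 616 and 922 CPM. In WT mice it ran from 448 to 875 CPM at 1 h, against 1041, 1251 and 1072 CPM, and measured 236, 346, 218, 244 and 164 CPM at 4 h, against 925, 766, 667 and 526.2 CPM. All swim libraries lay below all naive libraries of their cohort and genotype, as in 16.2% of genes for Shank3 mice at 1 h, 13.9% for WT mice at 1 h, 19.8% for Shank3 mice at 4 h and 19.3% for WT mice at 4 h. The log2 changes were -0.79 ± 0.27 (SE, adjusted p = 0.0453, edgeR) and -0.86 ± 0.26 (adjusted p = 0.0103) at 1 h in Shank3 and WT mice. At 4 h they were -1.67 ± 0.24 (adjusted p = 1.63e-06) and -1.58 ± 0.25 (adjusted p = 7.56e-06, edgeR). They shrank, with the pair share as covariate, to -0.39 (adjusted p = 0.00802) in Shank3 mice and -0.36 (adjusted p = 0.00977) in WT mice at 1 h, and to -0.45 (adjusted p = 0.0869) and -0.51 (adjusted p = 0.0056, edgeR) at 4 h. The Shank3 1 h call was lost without any one of 7 of the 8 libraries (adjusted p from 0.0546 to 0.218, edgeR), all but Shank3 1 h replicate 1, and with TMM over rows with no opposite gene (-1.0, adjusted p = 0.0651), and the WT 1 h call without WT naive replicate 2 (-0.77, adjusted p = 0.0536). Ddx49, on the other strand, changed by -0.75 ± 0.21 (adjusted p = 0.00284) in Shank3 mice and by -0.68 ± 0.22 (adjusted p = 0.00831, edgeR) in WT mice at 4 h. At 1 h Ddx49 changed by -0.74 ± 0.24 (adjusted p = 0.0404) in Shank3 mice and by -0.86 ± 0.24 (adjusted p = 0.00653, edgeR) in WT mice, close to the Homer3 changes. The part of Ddx49 in the Homer3 values was not tested. Of the joint counts of both genes, Homer3 held 90.2% to 94.8% in Shank3 4 h libraries against 94.5% to 97.0% in naive ones, and 90.0% to 94.7% in WT 4 h libraries against 94.6% to 97.6%.

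Homer2, which like the long Homer1 forms binds metabotropic glutamate receptors, was low throughout. It measured 12.5 to 19.2 CPM in Shank3 1 h libraries against 9.30 to 13.9 CPM in naive ones, and 12.6 to 19.5 CPM in WT 1 h libraries against 3.14 to 13.8 CPM. At 4 h it measured 13.6 to 17.9 CPM in Shank3 mice against 11.5 to 15.9 CPM, and 10.8 to 21.0 CPM in WT mice against 5.77 to 14.9 CPM. It passed the test only in WT mice at 1 h, at 0.91 ± 0.33 (SE, adjusted p = 0.0302, edgeR), among the 4 swim responses. That call was lost without WT naive replicate 3 (0.55, adjusted p = 0.25), WT naive replicate 2 (0.98, adjusted p = 0.078), WT 1 h replicate 2 (0.84, adjusted p = 0.0643) or WT 1 h replicate 3 (0.845, adjusted p = 0.0526, edgeR), with the pair share as covariate (0.84, adjusted p = 0.0827), with TMM over rows with no opposite gene (0.54, adjusted p = 0.257), with no filter (adjusted p = 0.08) and with DESeq2 (adjusted p = 0.0719). At 4 h the WT value, 0.58 ± 0.26 (adjusted p = 0.0528), passed without WT naive replicate 7 (0.84, adjusted p = 0.0144), WT 4 h replicate 3 (0.68, adjusted p = 0.0289) or WT 4 h replicate 4 (0.64, adjusted p = 0.0421, edgeR), and with DESeq2 size factors (0.67, adjusted p = 0.029) or DESeq2 itself (0.67, adjusted p = 0.0395). Homer2 held 9.44% to 25.2% of the joint counts with Gm44570 in Shank3 4 h libraries against 5.44% to 9.12% in naive ones, and 12.5% to 22.2% in WT 4 h libraries against 2.94% to 10.4%. Gm44570 itself fell at 4 h, by -1.24 ± 0.24 (adjusted p = 4.43e-05) in Shank3 mice and -1.07 ± 0.25 (adjusted p = 0.000558, edgeR) in WT mice. Homer2 changed by 0.20 ± 0.24 (adjusted p = 0.465, edgeR) in Shank3 mice at 4 h, so its larger share there is not a called rise of Homer2.

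**Figure D2:**
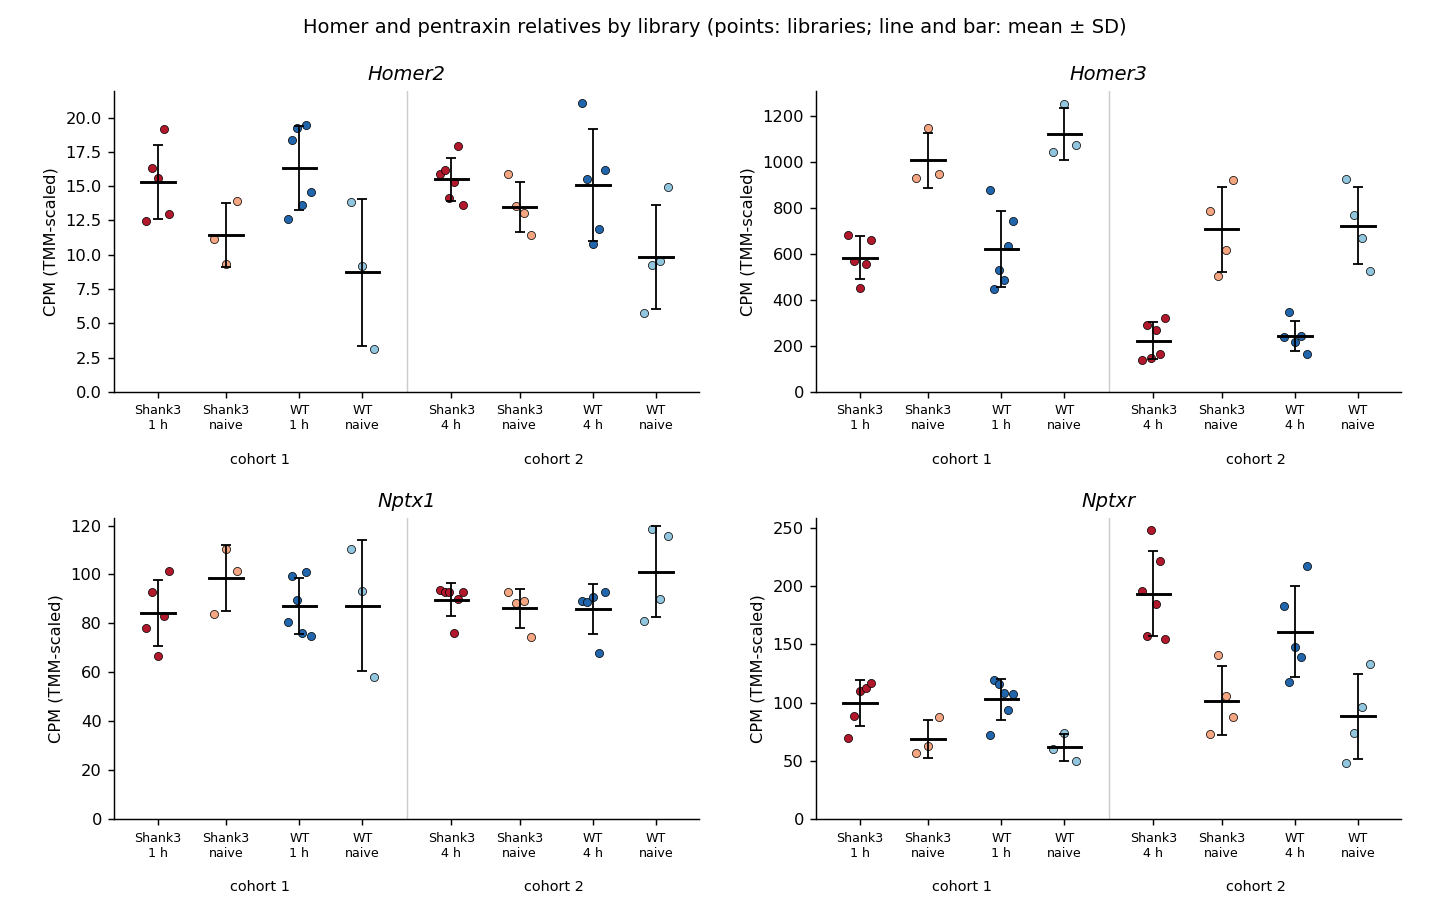
TMM-scaled CPM of Homer2, Homer3, Nptx1 and Nptxr (vertical axes) in each of the 36 libraries by genotype, swim time and cohort (horizontal axes), with the mean and SD of each group. Homer3 was at 140 to 346 CPM at 4 h and at 502 to 1251 CPM in naive libraries, while the Nptx1 groups overlapped.

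Per kilobase of exon, the naive WT libraries of cohort 1 held 326 ± 32.9 CPM of Homer3, 16.7 ± 5.13 of Nptx1, 11.9 ± 2.27 of Nptxr, 5.77 ± 1.77 of Plk2, 2.15 ± 1.12 of Nptx2, 2.04 ± 0.35 of Homer1, 1.51 ± 1.72 of Arc and 0.691 ± 0.425 of Homer2 (SD, n = 3). On this scale of levels Arc, Homer1 and Nptx2 did not differ beyond their spread, and the Homer3 value carries the limit of the opposite strand. At 4 h the Shank3 libraries held 37.5 ± 7.11 of Nptxr, 31.8 ± 6.53 of Plk2, 17.2 ± 1.305 of Nptx1, 12.6 ± 9.68 of Arc, 8.21 ± 1.55 of Homer1 and 4.67 ± 1.88 of Nptx2 (SD, n = 6). In the naive Shank3 libraries of the same cohort Plk2 was at 12.5 ± 2.73 and Nptx1 at 16.5 ± 1.54 (SD, n = 4).

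Over all 8 groups, the order of mean levels differed between the induced genes. Arc was highest in WT 1 h libraries (54.4 ± 22.9 CPM) and then in Shank3 1 h (44.9 ± 2.46), Shank3 4 h (38.6 ± 29.6) and WT 4 h libraries (26.8 ± 16.3), and the ranges of all neighbours in this order overlapped. Homer1 was highest in Shank3 4 h (98.3 ± 18.6 CPM) and WT 4 h libraries (89.3 ± 12.0), which overlapped each other and lay apart from Shank3 1 h (39.7 ± 9.45) and WT 1 h libraries (37.6 ± 9.59). Plk2 had the order Shank3 4 h (143 ± 29.3 CPM), WT 4 h (133 ± 13.7), WT 1 h (88.8 ± 22.4) and Shank3 1 h (81.1 ± 10.0), each overlapping the next. Nptx2 had Shank3 4 h (11.8 ± 4.78 CPM) and WT 4 h (6.39 ± 3.18) first, with overlapping ranges. These are levels, and those of 1 h and 4 h come from different cohorts.

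The change of the swim response between 4 h and 1 h, each against naive mice of its cohort and averaged over genotypes, was tested directly. Every 1 h library is in cohort 1 and every 4 h library in cohort 2, so time and cohort cannot be told apart in this contrast. Homer1 responded more at 4 h, by 0.98 ± 0.26 on the log2 scale (SE, adjusted p = 0.0105, edgeR), and Homer3 fell further at 4 h, with -0.80 ± 0.26 (adjusted p = 0.0346). These were 2 of 8 members, where 12.4% of all genes passed, 3.74% higher and 8.61% lower. Arc had -1.24 ± 0.69 (adjusted p = 0.227), Nptx2 1.67 ± 0.63 (adjusted p = 0.0696) and Plk2 0.03 ± 0.24 (adjusted p = 0.947, edgeR), which did not pass. The timing of one gene against another was not tested. Homer1 kept an adjusted p under the threshold without any single library (0.87 to 1.09), and had 0.67 (adjusted p = 0.0666, edgeR) with the pair share as covariate. Nor did Homer1 pass with a block for replicate number in the model. With the pair share as covariate the Homer3 value was -0.11 (adjusted p = 0.609, edgeR). It was also not past the threshold, at -0.783 to -0.723 (adjusted p from 0.0503 to 0.0666, edgeR), without naive WT replicate 1, 3 or 4, naive Shank3 replicate 1, 3, 4 or 7, replicate 1 or 5 of the Shank3 1 h group, or replicate 3 or 5 of the WT 4 h group. Nptx2 passed without WT naive replicate 7 (2.01, adjusted p = 0.0346), Shank3 naive replicate 1 (1.92, adjusted p = 0.0449) or WT 4 h replicate 2 (1.75, adjusted p = 0.0423, edgeR).

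**Figure D3:**
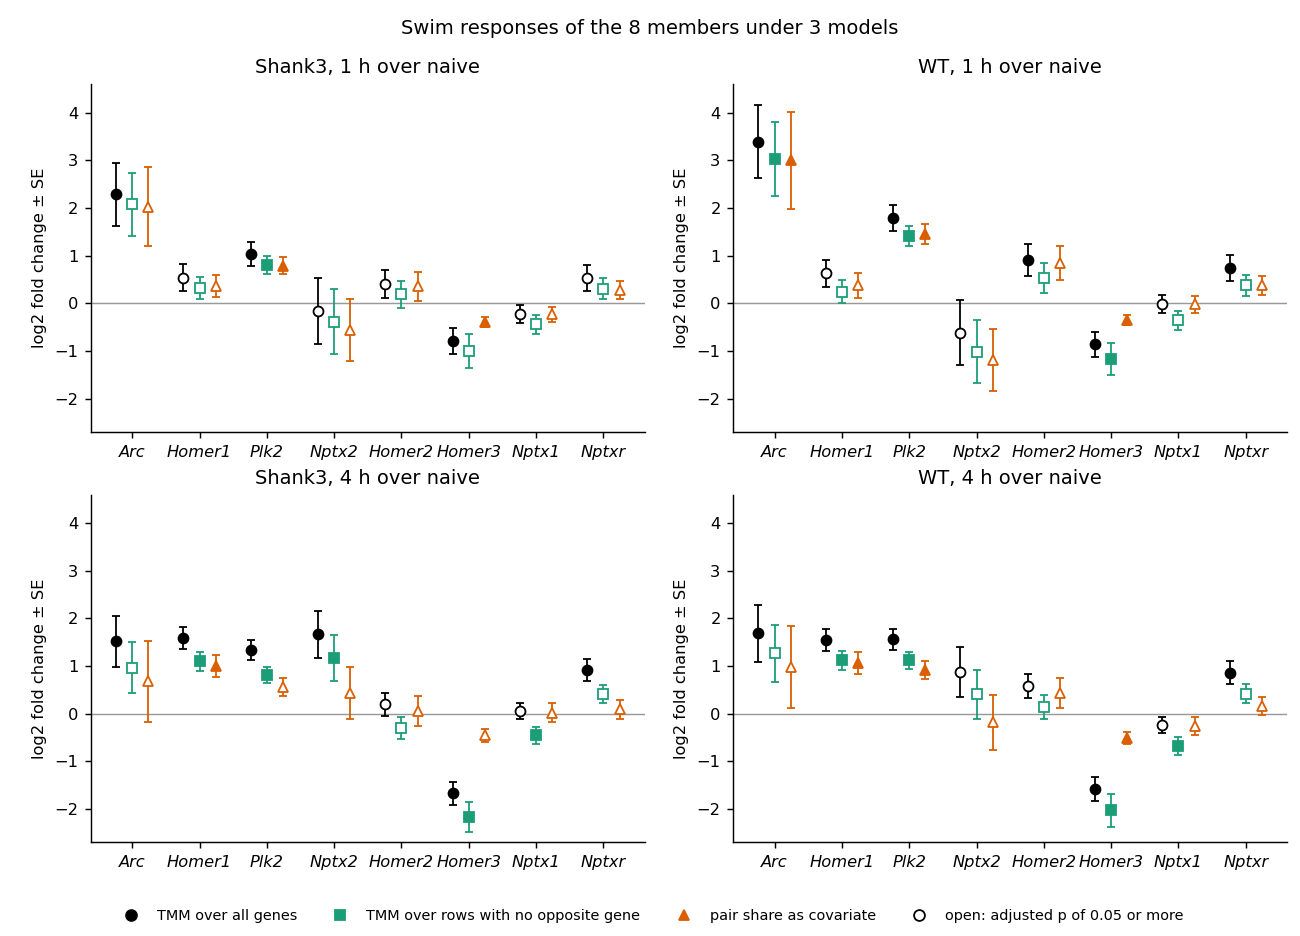
Log2 fold change of swim over naive libraries with its SE (vertical axes) for the 8 members (horizontal axes) in each genotype and time, with TMM over all genes, TMM over rows with no opposite gene and the pair share as covariate. Filled symbols have an edgeR adjusted p under 0.05; Plk2 at 1 h and Homer1 at 4 h were filled in all 3 models in both genotypes.

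Ratios of counts within a library do not depend on the scaling between libraries, and were taken within families after the values had been seen. The log2 ratio of Homer1 over Homer2 was 2.64 ± 0.32 in Shank3 4 h libraries, against 1.16 ± 0.52 in naive ones, a difference of 1.48 (SD, n = 6 and 4, exact two-sided permutation test, adjusted p = 0.019 over 12 tests). The WT ratio was 2.58 ± 0.44 at 4 h, against 1.51 ± 0.37, a difference of 1.07 (n = 5 and 4, exact permutation, adjusted p = 0.0476). Without WT 4 h replicate 2, 3, 4 or 5 or WT naive replicate 4 the WT difference was 0.91 to 1.10, with an unadjusted exact permutation p of 0.0536 to 0.0571. At 1 h this ratio differed by 0.12 in Shank3 mice and by -0.43 in WT mice (exact permutation, adjusted p = 0.721 and 0.414). Homer2 enters with the limit of its antisense neighbour.

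The pentraxin ratios involve no gene with an opposite partner. Nptx2 over Nptx1 was -2.98 ± 0.49 in Shank3 4 h libraries, against -4.50 ± 0.74 in naive ones, and the 6 swim libraries, -3.59 to -2.17, lay above the 4 naive ones, -5.55 to -3.91. The difference of 1.52 had an adjusted p of 0.019 by the exact permutation test. In WT mice the ratio was -3.84 ± 0.72 at 4 h, against -5.12 ± 1.43, a difference of 1.29 that did not pass (exact permutation, adjusted p = 0.131). Nptxr over Nptx1 was higher after the swim by 0.89 in Shank3 mice (adjusted p = 0.019) and by 1.15 in WT mice (adjusted p = 0.0238) at 4 h. At 1 h it was higher by 0.76 in Shank3 mice (adjusted p = 0.0612) and by 0.70 in WT mice (adjusted p = 0.0286, exact permutation tests), and the WT difference was 0.505 without WT naive replicate 1 (unadjusted exact permutation p = 0.0714). With 5 against 3 and 6 against 3 libraries at 1 h, a single regrouping is worth 0.0179 and 0.0119, which limits these tests.

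**Figure D4:**
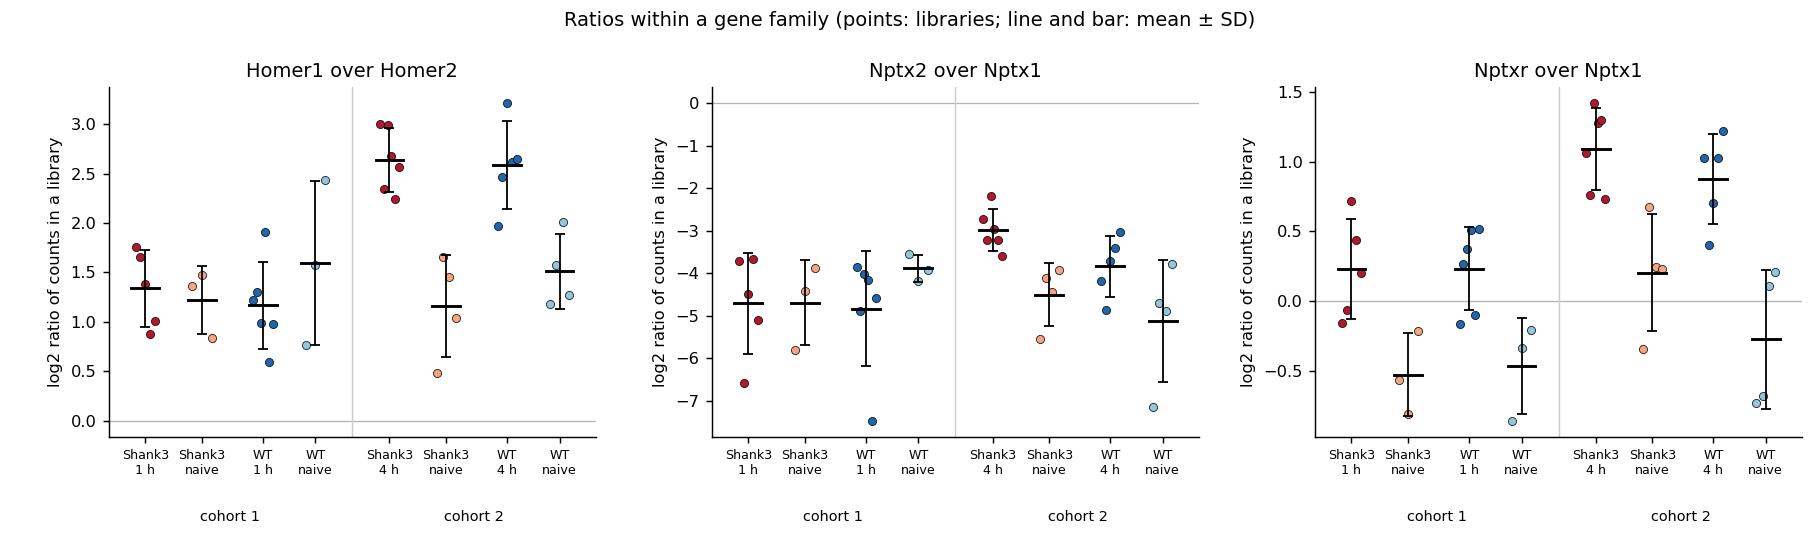
Log2 ratio of counts within a library for Homer1 over Homer2, Nptx2 over Nptx1 and Nptxr over Nptx1 (vertical axes) by genotype, swim time and cohort (horizontal axes), with the mean and SD of each group. The Homer1 over Homer2 ratio was 1.97 to 3.21 in 4 h libraries of both genotypes and 0.48 to 2.01 in naive libraries of cohort 2.

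The members' levels were also set against the pair share of each library. In cohort 1, the levels of Arc, Plk2 and Homer3 each separated 1 h from naive libraries. The pair share did so too, above the naive maximum of 11.9%, in every 1 h library but WT 1 h replicate 1, at 11.45%. Plk2 was at 56.6 CPM or more at 1 h against 43.0 CPM or less in naive libraries. Homer3 was at 875 CPM or less at 1 h against 929 CPM or more, while the Homer1 ranges overlapped. WT 1 h replicate 1 held both the 56.6 CPM of Plk2 and the 875 CPM of Homer3. The part of the pair share in these separations was not tested beyond the fits with the covariate. Plk2 and Homer1 were also higher, and Homer3 lower, where the pair share was higher. At 4 h the highest pair share, 33.1% in Shank3 4 h replicate 1, went with 127 CPM of Homer1 and 140 CPM (140.2 before rounding) of Homer3, and the lowest, 17.0% in WT 4 h replicate 2, with 86.5 CPM of Homer1 and 346 CPM of Homer3. The naive library of cohort 2 with the highest pair share, Shank3 naive replicate 5 at 15.0%, had 43.3 CPM of Homer1, 13.0 CPM of Arc and 502 CPM of Homer3. These are values of single libraries, given with no test.

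**Figure D5:**
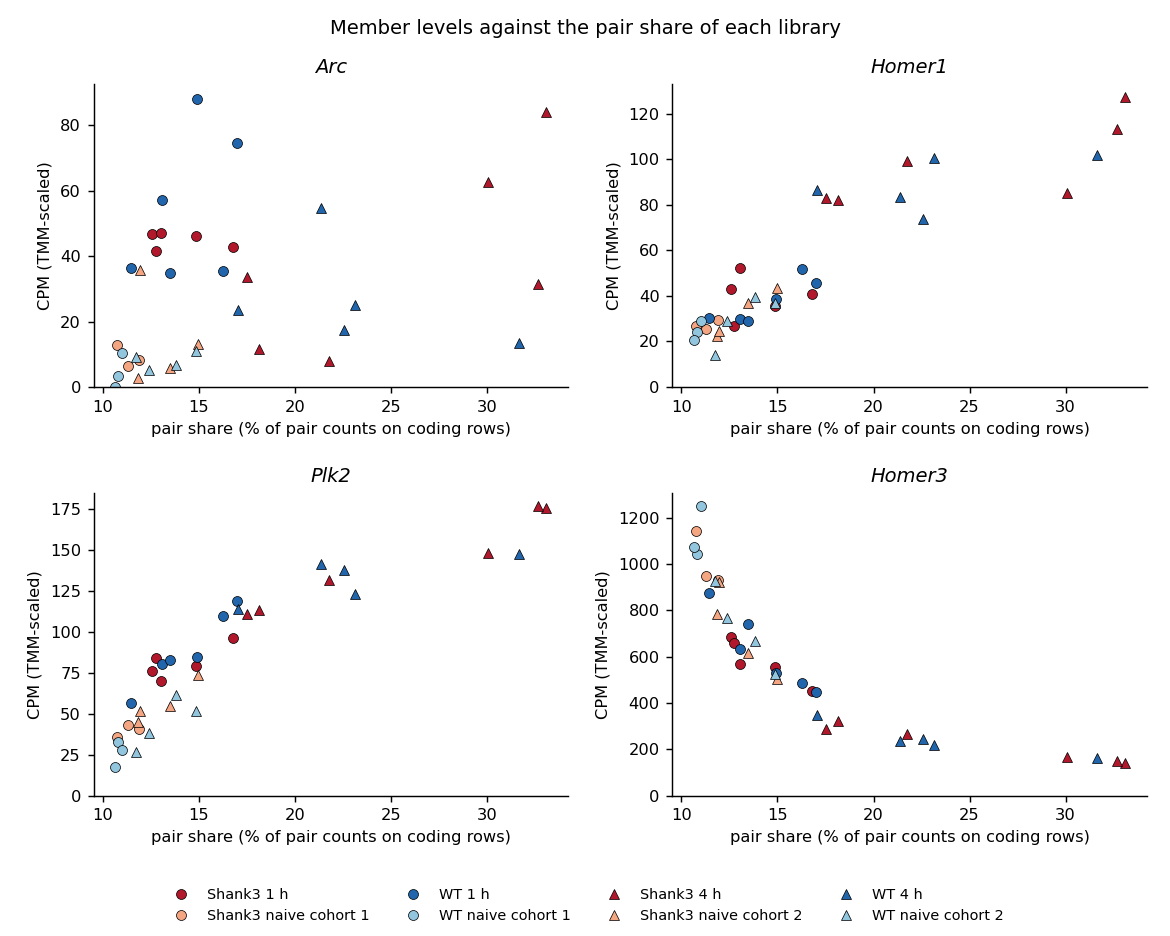
TMM-scaled CPM of Arc, Homer1, Plk2 and Homer3 (vertical axes) against the pair share in percent (horizontal axes) in the 36 libraries, colored by genotype and swim, with circles for cohort 1 and triangles for cohort 2. Homer3 ran from 1251 CPM at a pair share of 11.02% down to 140 CPM at 33.1%. Arc at 1 h, 34.7 CPM or more, stood above all naive libraries of cohort 1 at 12.8 CPM or less. So did Plk2 at 1 h, with 56.6 CPM or more against 43.0 CPM or less.

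No member passed the edgeR test between genotypes. In naive mice 0 of 8 members passed, where 0.00882% of all genes did, and 539 genes had an unadjusted p under 0.05. At 1 h 0 of 8 passed, where 0.0% of all genes did and 205 had an unadjusted p under 0.05, and at 4 h 0 of 8, where 0.00882% did and 228 had an unadjusted p under 0.05. DESeq2 also called 0 of 8 in each of these and in each interaction. The genotypes overlapped for all 8 members at 1 h and at 4 h, as for nearly all genes. Every Shank3 library lay above every WT library for 0.0882% of genes at 1 h and 0.106% at 4 h. Every Shank3 library lay below for 0.097% at each time. The members with the smallest unadjusted p were Plk2 in naive mice, 0.48 ± 0.20 on the log2 scale (SE, unadjusted p = 0.0195, edgeR), and Nptx2 at 4 h, 0.83 ± 0.33 (unadjusted p = 0.0162), both higher in Shank3 mice with an adjusted p of 1. Plk2 measured 40.4, 36.0 and 43.0 CPM in naive Shank3 libraries against 32.8, 27.6 and 17.3 CPM in naive WT libraries of cohort 1, without overlap. With 3 libraries a side, and no share of all genes apart in this way computed for naive mice, no genotype difference is drawn from this. In cohort 2 it measured 45.0, 73.5, 54.6 and 51.5 CPM against 26.5, 38.2, 61.2 and 51.8 CPM, with overlap. The Arc difference was 0.79 ± 0.63 without a swim, -0.29 ± 0.41 at 1 h and 0.60 ± 0.40 at 4 h, and that of Homer1 was 0.12 ± 0.22, 0.05 ± 0.21 and 0.14 ± 0.19 (SE, adjusted p = 1 in each, edgeR).

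The interaction of genotype with the swim also passed for 0 of 8 members at either time, where 0.0% of all genes passed at 1 h and 0.0% at 4 h, with 468 and 302 genes at an unadjusted p under 0.05 (edgeR). Plk2 at 1 h came nearest, with a Shank3 response 0.76 ± 0.37 lower than the WT response (SE, value -0.76, unadjusted p = 0.0427, adjusted p = 1). Arc had -1.10 ± 1.12 at 1 h and -0.17 ± 0.81 at 4 h, Homer1 -0.09 ± 0.40 and 0.03 ± 0.33, and Nptx2 0.46 ± 0.97 and 0.79 ± 0.77.

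Genes that work with the members were followed in 6 lists, whose counts are read against the shares of all genes called. Only the 2 genes with the smallest p per list and swim response are named. A gene named in 1 genotype is therefore not shown to differ from the other genotype. The interaction of genotype with the swim passed for 0.0% of all genes at 1 h and 0.0% at 4 h (edgeR). Higher were 4.99% of all genes in Shank3 mice and 16.9% in WT mice at 1 h, and 32.7% and 29.0% at 4 h, and lower were 7.25% and 17.3% at 1 h and 29.4% and 26.9% at 4 h. Among genes with no opposite gene, 5.27% and 21.6% were higher at 1 h, and 44.8% and 38.4% at 4 h. Of the 12 rapid response genes 10 were measured. In Shank3 mice 3 rose and 0 fell at 1 h (median change 1.00 on the log2 scale), and 7 rose and 2 fell at 4 h, with a median of 1.57. In WT mice 5 rose and 1 fell at 1 h (median 1.68), and 6 rose and 1 fell at 4 h, with a median of 1.59. Fos, a subunit of AP-1, rose by 3.16 ± 0.55 in Shank3 mice (SE, adjusted p = 0.000709, edgeR) and by 3.26 ± 0.57 in WT mice (adjusted p = 0.000423) at 1 h. Nr4a1, an orphan nuclear receptor, rose by 3.06 in Shank3 mice and the zinc finger factor Egr1 by 1.71 in WT mice at 1 h. Egr1 rose by 1.51 ± 0.27 (adjusted p = 1.66e-05) in Shank3 mice and by 1.68 ± 0.29 (adjusted p = 1.55e-05, edgeR) in WT mice at 4 h, when Egr3 rose by 2.08 in Shank3 mice and the AP-1 subunit Junb, whose exons face another gene, by 1.72 in WT mice.

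Among the 12 partners of Homer proteins, 0 rose and 0 fell in Shank3 mice and 3 rose and 1 fell in WT mice at 1 h, and 5 rose in Shank3 mice and 6 in WT mice at 4 h with 0 falling, near the 44.8% and 38.4% of genes with no opposite gene. Their medians were 0.03 and 0.26 at 1 h and 0.61 in both genotypes at 4 h, beside 0.62 and 0.58 for genes with no opposite gene at 4 h. Dnm3, a dynamin that binds Homer at spines, had 0.80 (adjusted p = 0.0581) in Shank3 mice and 0.89 (adjusted p = 0.0253) in WT mice at 1 h and rose at 4 h by 1.3 ± 0.24 in both (SE, adjusted p = 2.76e-05 in Shank3 mice and 4.85e-05 in WT mice, edgeR). The calcium release channel gene Ryr2 had 0.68 (adjusted p = 0.0571) in Shank3 mice at 1 h, and the calcium channel gene Cacna1c fell by 0.91 in WT mice at 1 h (adjusted p = 0.0172, edgeR). The scaffold gene Shank2 rose at 4 h by 1.67 in Shank3 mice and 1.36 in WT mice. Dnm3 faces another gene's exon, and Ryr2, Cacna1c and Shank2 lie opposite another gene.

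Of the 12 Arc partners 0 rose and 2 fell in Shank3 mice and 1 rose and 2 fell in WT mice at 1 h. At 4 h 6 rose and 3 fell in Shank3 mice and 5 rose and 3 fell in WT mice, where 29.4% and 26.9% of all genes were lower and 44.8% and 38.4% of genes with no opposite gene higher. Ap2m1, the clathrin adaptor subunit that Arc binds, rose by 1.14 ± 0.21 in both genotypes (SE, adjusted p = 1.96e-05 in Shank3 mice and 4.15e-05 in WT mice, edgeR) at 4 h, and Dlg4, the scaffold PSD-95, rose by 1.7 in Shank3 mice. The Dlg4 response at 4 h differed between genotypes by 0.46 ± 0.37 (SE), which did not pass. Dnm2, a dynamin of endocytosis, fell by 0.94 in Shank3 mice at 1 h (adjusted p = 0.036) and by 1.81 ± 0.28 in WT mice at 4 h (adjusted p = 6.56e-06, edgeR). Sh3gl1, an endophilin, fell at 1 h by 0.80 in Shank3 mice (adjusted p = 0.0315) and 0.95 in WT mice (adjusted p = 0.0046), and the ubiquitin ligase gene Ube3a fell by 0.97 in WT mice (adjusted p = 0.0032, edgeR). The exons of Dnm2, Sh3gl1 and Ube3a face another gene.

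Of 8 measured polo-like kinases and Plk2 substrates, 1 rose in Shank3 mice and 4 in WT mice at 1 h with 0 falling, where 4.99% and 16.9% of all genes were higher. At 4 h 6 rose and 1 fell in Shank3 mice and 5 rose and 1 fell in WT mice, where 32.7% and 29.0% of all genes were higher. Sipa1l1, which encodes SPAR, rose by 1.51 ± 0.22 in Shank3 mice (SE, adjusted p = 1.97e-06, edgeR) and by 1.33 ± 0.22 in WT mice (adjusted p = 1.43e-05) at 4 h. Rasgrf1, a Ras exchange factor, rose by 0.97 ± 0.29 in Shank3 mice (adjusted p = 0.0319) and 1.37 ± 0.31 in WT mice (adjusted p = 0.00218, edgeR) at 1 h, and by 2.03 in Shank3 mice at 4 h. Its response at 4 h differed between genotypes by 0.77 ± 0.35 (SE), which did not pass. Nsf, a membrane fusion ATPase, had 0.71 (adjusted p = 0.0654) in Shank3 mice at 1 h and rose by 1.01 at 1 h and 1.34 at 4 h in WT mice.

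Of 7 measured pentraxin partners, 1 rose in Shank3 mice and 2 in WT mice at 1 h, where 4.99% and 16.9% of all genes were higher, and 2 in Shank3 mice and 1 in WT mice at 4 h, no larger a share than the 32.7% and 29.0% of all genes. None of the 7 fell. Adam17, a membrane protease, rose at 1 h by 3.41 in Shank3 mice and 3.19 in WT mice, and its exons face another gene. Gria1, an AMPA receptor subunit, had 0.70 ± 0.23 (SE, adjusted p = 0.00755) in Shank3 mice and 0.47 ± 0.23 (adjusted p = 0.0757, edgeR) in WT mice at 4 h. The subunit gene Gria2 had 0.53 (adjusted p = 0.112) in Shank3 mice and rose by 1.1 in WT mice at 1 h (adjusted p = 0.00231, edgeR). Cacng3, an AMPA receptor auxiliary subunit with a gene on the opposite strand, rose at 4 h by 2.74 in Shank3 mice and 2.26 in WT mice.

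Of 8 regulators of activity-dependent transcription, 2 rose and 1 fell in each genotype at 1 h, where 4.99% of all genes were higher in Shank3 mice and 16.9% in WT mice, and 5 rose and 1 fell in each at 4 h, where 32.7% and 29.0% were higher. Mef2c, a transcription factor that restrains excitatory synapse number, rose by 0.91 ± 0.22 in WT mice at 1 h (SE, adjusted p = 0.00353, edgeR), and its relative Mef2a rose at 1 h by 0.77 in Shank3 mice and 1.13 in WT mice. At 4 h Mef2d rose by 1.07 in Shank3 mice and 0.93 in WT mice, and the CREB coactivator gene Crtc1 rose by 2.37 in Shank3 mice. The serum response factor gene Srf fell by 0.89 in Shank3 mice at 1 h (adjusted p = 0.0292) and by 0.83 in WT mice at 4 h (adjusted p = 0.00433, edgeR). The Shank3 response minus the WT response at 4 h was 0.87 ± 0.66 for Crtc1 and -0.36 ± 0.34 for Srf (SE), and neither passed. The exons of Mef2a and Mef2d face another gene, and Srf lies opposite another gene.

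The genes most like each induced member across the 36 libraries were taken among 9047 genes whose log2 CPM averaged 1 or more, as a description, since all share library, depth and scaling. Plk2 was most like Snap91, Atp6v1a and Etnk1, with a Pearson r of 0.963, 0.961 and 0.960. Homer1 was most like Dclk1, Spred2 and Psmb3 (0.936, 0.935 and 0.933), Arc like Arl4d, Atp5s and Kdm7a (0.821, 0.791 and 0.774), and Nptx2 like Ccnk, Dhdds and Psme2 (0.781, 0.730 and 0.719). Within the members Homer1 and Plk2 had a Pearson r of 0.874 with each other, and with Homer3 it was -0.934 for Homer1 and -0.896 for Plk2. Arc had one of 0.686 with Plk2, 0.411 with Homer1 and 0.0709 with Nptx2, and Nptx2 had one of 0.422 with Plk2 and 0.582 with Homer1.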

How the data were processed

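Ribosome-bound RNA was sequenced from 36 libraries, and the deposited files hold counts per gene as whole numbers, which the authors left unnormalized. The submitters' processing notes name Trimmomatic 0.39, FastQC, HISAT2 2.2.0, StringTie 2.1.3, Salmon 1.4, DESeq2 and build mm10, with no role for any of them. Depth was 0.884 to 3.52 M counts per library. Rows without a symbol held 0.0412% of counts and were kept.

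The quasi-likelihood test of edgeR 4.0.16 (R 4.3.3, robust, TMM, low-count filter) was applied to 1 model with 8 cells of genotype, treatment and cohort and 28 residual degrees of freedom. Benjamini-Hochberg adjustment ran over 11341 genes within each of the 10 comparisons, at a threshold of 0.05. Fold changes are swim over naive and Shank3 over WT, and each SE was derived from the fold change and its F statistic. CPM values use TMM library sizes. The TMM factors, 0.498 to 1.818, followed the pair share (Spearman rho 0.98 over libraries, given as a description). Ratios of counts used a pseudocount of 0.5 and exact two-sided permutation tests over all regroupings of libraries. Their p-values were adjusted over 12 tests by Benjamini-Hochberg (SciPy 1.17.1). The edgeR step was tested on simulated data.

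The members and lists were chosen with earlier results of these data known. Named genes were the 8 members, of each of the 6 partner lists the 2 genes with the smallest p in each swim response, and the 3 genes most like each induced member. Alternatives were DESeq2 size factors, no filter, DESeq2 1.42.0, a replicate block, the pair share as covariate, each cohort alone, and leaving out 1 library at a time or those with over 10% of counts on a ribosomal RNA row. TMM over rows with no opposite gene, the pseudocount of the ratios and leaving libraries out of the ratios were added after seeing the data, as were the promoter motifs.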

Additional observations from a re-analysis of the deposited data

Results flagged for a closer look

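Among 48 groups of 4 to 6 libraries, 3 held a library far from the others, where chance gives about 1 in 20 groups. Arc was at 54.71 CPM in WT 4 h replicate 1, far above the other 4 WT 4 h libraries at 13.4 to 25.1 CPM. Nptx1 was at 76.03 CPM in Shank3 4 h replicate 4, below the other 5 libraries at 90.1 to 93.8 CPM. Nptx1 was also low in WT 4 h replicate 4, at 67.91 CPM against 88.9 to 93.0 CPM in the others. The swim response differed between 4 h and 1 h for Homer1, by 0.984 on the log2 scale, and for Homer3, by -0.8 (edgeR, adjusted p = 0.0105 and 0.0346); times and cohorts cannot be told apart here.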

How the results depend on the processing

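The rises of Homer1 and Plk2 and the fall of Homer3 at 4 h kept their direction under every alternative run, and the Arc and Plk2 rises at 1 h kept theirs. Of the 8 members, 3 passed in Shank3 mice at 1 h, and 1 did with TMM over rows with no opposite gene. In WT mice at 1 h 5 passed, 3 with that scaling and 3 with the pair share as covariate. At 4 h 6 passed in Shank3 mice and 5 in WT mice, against 1 and 3 with the pair share as covariate. For 4 h against 1 h 2 passed, against 1 with DESeq2 size factors, 4 with no filter, 0 with the pair share, and 1 without libraries over 10% ribosomal RNA. With the replicate block 0 passed there, Homer1 had 0.842 (adjusted p = 0.0723, edgeR), Homer1 in WT mice at 1 h passed at 0.776, and Homer2 there did not (0.942, adjusted p = 0.058). Same-numbered libraries had correlations from -0.226 to 0.705 with a median of 0.007, and 10 of 39 pairs were over 0.1. Differently numbered libraries of a cohort had -0.758 to 0.774 with a median of -0.003, and 41 of 200 pairs were over 0.1. These values show no pairing by number but cannot exclude it. Leaving out 1 library gave counts of 0 to 3 in Shank3 mice and 3 to 5 in WT mice at 1 h, and 1 to 3 for 4 h against 1 h.

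The sign changes were of values not past the threshold with TMM over all genes. With no filter, Nptx1 in WT mice at 1 h was 0.09 and the Nptx2 genotype effect at 1 h 0.000808, and with DESeq2 that genotype effect was 0.00207. With the replicate block, Nptx1 was 0.0111 in WT mice at 1 h, -0.00758 in Shank3 mice at 4 h and -0.0242 for 4 h against 1 h, and the Arc interaction at 4 h was 0.0551. With cohort 1 alone Nptx1 in WT mice was 0.0638. With TMM over rows with no opposite gene, in Shank3 mice at 4 h Homer2 was -0.301 and Nptx1 -0.455 (past the threshold, adjusted p = 0.0319, edgeR), for 4 h against 1 h Plk2 was -0.14 and Nptx1 -0.171, the Nptx2 genotype effect at 1 h was 0.0437, and the Homer1 interaction was 0.0794 at 1 h and -0.0278 at 4 h. With the pair share, Nptx2 in WT mice at 4 h was -0.178, Plk2 and Nptxr for 4 h against 1 h were -0.382 and -0.196, the genotype effects of Nptx2 at 1 h and Plk2 at 4 h were 0.0844 and -0.0122, and the Homer1 interaction at 4 h was -0.06. Without libraries over 10% ribosomal RNA, Nptx1 in Shank3 mice at 4 h was -5.08e-05, Plk2 for 4 h against 1 h -0.0267, the Homer1 genotype effect at 1 h -0.00205, and the 4 h interactions of Arc and Homer1 were 0.409 and -0.0318.

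Leaving out 1 library, Nptx2 in Shank3 mice at 1 h ran from -0.657 to 0.328, Nptx1 in WT mice at 1 h from -0.225 to 0.19 and in Shank3 mice at 4 h from -0.00119 to 0.0911. For 4 h against 1 h Plk2 ran from -0.0586 to 0.138 and Nptx1 from -0.069 to 0.139. The Nptx2 genotype effect ran from -0.457 to 0.129 in naive mice and from -0.254 to 0.241 at 1 h, and that of Homer1 at 1 h from -0.0665 to 0.17. The interactions ran from -0.235 to 0.0341 for Homer1 and -0.0437 to 0.939 for Nptx2 at 1 h, and from -0.559 to 0.552 for Arc and -0.15 to 0.255 for Homer1 at 4 h. In Shank3 mice at 1 h the ratios ran from -0.0745 to 0.242 for Homer1 over Homer2 and from -0.568 to 0.45 for Nptx2 over Nptx1.

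Over all genes, 1388 passed in Shank3 mice at 1 h, against 718 with TMM over rows with no opposite gene, 2118 with cohort 1 alone and 58 to 1672 without 1 library. In WT mice at 1 h 3879 passed, against 2461 with the pair share and 2325 to 4612 without 1 library. At 4 h 7040 passed in Shank3 mice and 6350 in WT mice, against 60 and 872 with the pair share. For 4 h against 1 h 1401 passed, against 765 with the replicate block, 705 with the pair share, 917 without libraries over 10% ribosomal RNA and 953 to 2063 without 1 library. With no filter the genotype effect passed for 7 genes without a swim, 1 at 1 h and 5 at 4 h, against 1, 0 and 1, and the 4 h interaction for 5 against 0. With the pair share 3 genes passed for genotype in naive mice and 3 at 4 h, and with the replicate block 0 in naive mice. The 4 h interaction passed for 1 gene each with TMM over rows with no opposite gene, cohort 2 alone and DESeq2. Causes were not tested. Nptx2 gave no value with cohort 1 alone, where its counts fell under the filter. Low counts of Arc, Nptx2 and Homer2 limit these values.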
